A study of Persea americana and Macadamia integrifolia and Mangifera indica with 6 samples.

Results

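miR396 is a conserved plant microRNA (miRNA) family that was followed here, sequence by sequence, in leaves of avocado (Persea americana), macadamia (Macadamia integrifolia) and mango (Mangifera indica). Its members were all entries named miR396 in the abundance values made from Arabidopsis and rice reference miRNAs, which were 6 of the 123 entries. Entries with the same value in every library stand for the same sequence, so the 6 entries hold 3 of the 53 distinct sequences. The miR396a-type 5p sequence joins Arabidopsis miR396a-5p with rice miR396a-5p and miR396b-5p. The miR396b-type 5p sequence joins Arabidopsis miR396b-5p with rice miR396c-5p. The 3p sequence is that of rice miR396a-3p alone.

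Each species contributed 1 small RNA library of juvenile leaves and 1 of mature leaves. Juvenile leaves were the youngest fully expanded leaves of 1-month-old seedlings of avocado cultivar Hass, macadamia HAES741 and mango Kensington Pride, raised in a nursery (avocado) or a glasshouse (macadamia and mango). Mature leaves came from field trees of the same cultivars that had already flowered, aged 10 years in avocado and macadamia and 5 years in mango, with the avocado trees grafted onto Velvick rootstock and the mango trees grown from seed. Leaves of several plants or of several positions on a tree were pooled. Juvenile leaves came from the main unbranched shoot, and mature leaves from several positions on a tree. Whether seedlings and field trees shared a genotype is not given in the study's methods. Age, growing site and leaf position changed together, and in avocado grafting too, so their effects cannot be told apart. Abundance is given as RPM, which is reads per 1000000 reads of 20 to 24 nt in the same library. The shallowest library was juvenile mango, with a depth of 1141472 such reads recovered from the values, and the deepest was mature avocado with 7509125. There was no replicate of any species and age, so intervals within a species cover counting error only, and reads copied by PCR are not independent molecules.

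In Arabidopsis and other plants, the 5p strand of miR396 guides the cleavage of transcripts of the GROWTH-REGULATING FACTOR (GRF) family. GRF proteins act with GRF-INTERACTING FACTOR coactivators to keep cells of young leaves dividing, and a high miR396 level is known to limit leaf size. The 3p strand is the partner released from the same hairpin, and most of it is normally degraded. In Arabidopsis the miR396a and miR396b hairpins are separate genes, and transcription of miR396 is promoted by TCP4, itself a target of miR319.

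The family is shown by the forward primer that the study used for miR396 in its qRT-PCR, a DNA copy of the mature miRNA. Capitals mark bases 2 to 8 counted from the 5′ end, the seed.

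miR396 forward primer: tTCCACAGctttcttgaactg

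These 21 bases are those of the miR396a-5p entry of miRBase with T in place of U. The miR396b-5p entry shares the seed and differs at the 3′ end, so reads of both are told apart by that end alone, and the values do not by themselves name the gene a read came from. Whether the authors' counting allowed mismatches is not given, so the values and shares of both sequences below are those the counting assigned, and how cleanly it separated them was not tested.

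The miR396a-type 5p sequence was among the 3 most abundant of the 53 distinct sequences in every library. The juvenile libraries of avocado, macadamia and mango held 19678, 12487 and 7478 RPM of it, and the mature libraries 8301, 10848 and 15404 RPM. Juvenile avocado held the highest and juvenile mango the lowest of the 6 values. Mature avocado leaves had 2.37 times less than juvenile ones (95% interval 2.35 to 2.39) and mature macadamia leaves 1.15 times less (1.13 to 1.17), while mature mango leaves had 2.06 times more (2.01 to 2.11). As deposited, the sequence thus differed by age in opposite directions in avocado and mango, but these sizes depend on the scaling. With each species rescaled to the median of its sequences the log2 ratios were -0.28, 0.15 and 0.59 in avocado, macadamia and mango, and as a share of listed miRNA reads they were -0.16, 0.24 and -0.056.

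The miR396b-type 5p sequence had a lower level in the mature than in the juvenile library of each species. Juvenile avocado, macadamia and mango contained 13615, 3626 and 25927 RPM, and the mature libraries 3865, 1186 and 3118 RPM. Even so, mature avocado still exceeded juvenile macadamia. The juvenile level exceeded the mature one 3.52-fold in avocado (95% interval 3.47 to 3.57), 3.06-fold in macadamia (2.92 to 3.20) and 8.31-fold in mango (8.15 to 8.48). Among the 53 distinct sequences it ranked 3, 3 and 2 in juvenile avocado, macadamia and mango, and 5, 6 and 6 in the mature libraries.

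**Figure D1:**
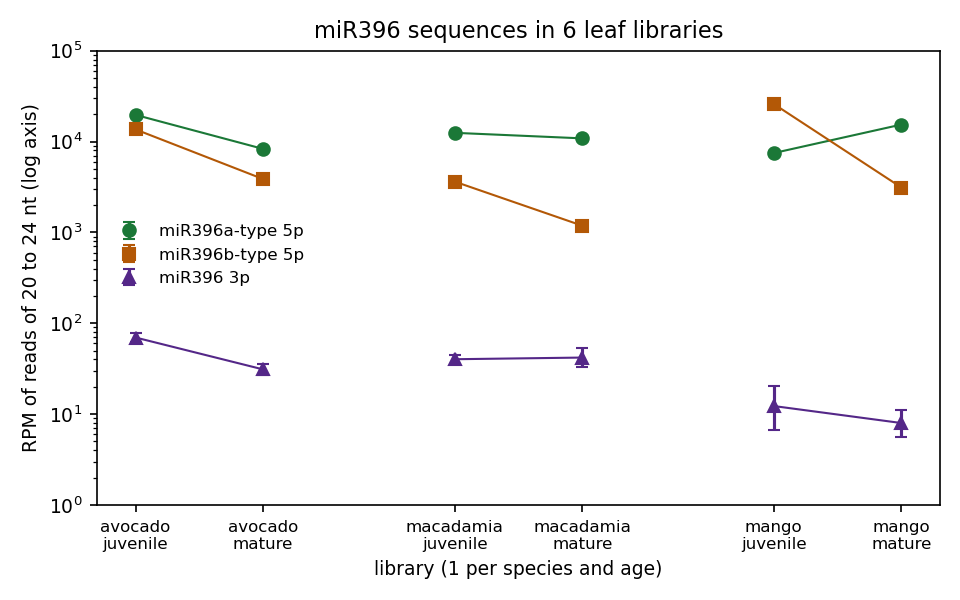
RPM of the 3 miR396 sequences (log axis) in the 6 libraries, with lines joining the 2 ages of a species and bars for exact Poisson 95% intervals of the reads. The miR396b-type sequence is lower at the mature end of all 3 lines, from 25927 to 3118 RPM in mango, whereas the miR396a-type sequence is higher in mature mango.

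Between species, the miR396b-type sequence also spread more widely than the miR396a-type sequence. In juvenile leaves the highest level (mango) was 7.15-fold above the lowest (macadamia), and in mature leaves avocado was 3.26-fold above macadamia. For the miR396a-type sequence, juvenile avocado was 2.63-fold above juvenile mango and mature mango was 1.86-fold above mature avocado. These folds are in RPM as deposited, and the order in mature leaves depends on the scaling. Of listed miRNA reads, the miR396a type made up 14.8%, 19.6% and 9.26% in mature avocado, macadamia and mango, so mango was then lowest. The miR396b type made up 6.91%, 2.14% and 1.88%, so its lowest was mango rather than macadamia. In juvenile leaves the highest and lowest species stayed the same. With 1 library per species at each age, these differences between species were not tested.

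The balance between both 5p sequences differed the same way in all 3 species, toward the miR396a type in mature leaves. The miR396b-type sequence made up 40.9% of the 5p reads in juvenile avocado (exact Clopper-Pearson 95% interval 40.6 to 41.1) and 31.8% in mature avocado (31.5 to 32.1). In macadamia its share was 22.5% in juvenile leaves (22.3 to 22.7) and 9.85% in mature leaves (9.45 to 10.3). In mango it was 77.6% in juvenile leaves (77.2 to 78.0) and 16.8% in mature leaves (16.6 to 17.1), so the more abundant sequence was not the same at both ages in mango, whereas in the other two species the miR396a type led at both ages. Because both sequences are read in the same library, these shares do not depend on how the library was scaled, but they do depend on reads of both having been kept apart.

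**Figure D2:**
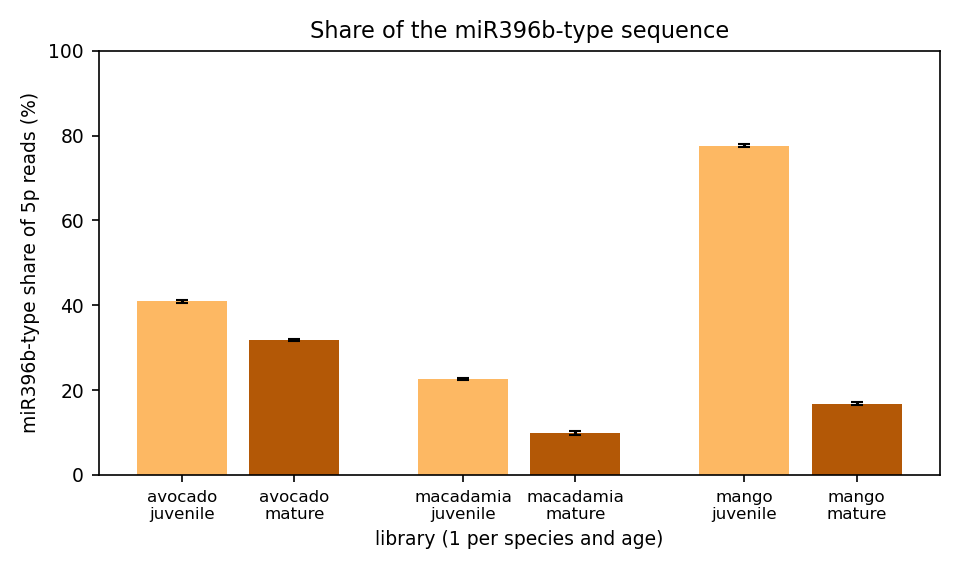
Share of the miR396b-type sequence among the reads of both 5p sequences (percent, axis from 0) in the 6 libraries, with exact 95% intervals. Light bars are juvenile and dark bars mature leaves, and in each species the dark bar is the lower, at 31.8%, 9.85% and 16.8% in avocado, macadamia and mango.

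Expressed as the ratio of miR396a-type to miR396b-type reads, the balance went from 1.45 to 2.15 in avocado, from 3.44 to 9.15 in macadamia and from 0.288 to 4.94 in mango between juvenile and mature leaves. The ratio was therefore 1.49-fold higher in mature avocado (95% interval 1.46 to 1.51), 2.66-fold higher in mature macadamia (2.53 to 2.79) and 17.1-fold higher in mature mango (16.6 to 17.7). Across the species the mean log2 change was 2.03 ± 1.84 (SD, n = 3 species), higher in 3 of 3. An exact two-sided sign-flip permutation test over the 3 species gave p = 0.25, the smallest value that 3 species allow, so this design cannot pass a threshold of 0.05.

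In RPM as deposited, both sequences contributed to the lower family sum of mature avocado and macadamia, and in mango they opposed each other. This split depends on the scaling. In macadamia the miR396a type had log2 ratios of 0.15 rescaled to the median and 0.24 as a share of listed miRNA reads. As such a share, both sequences were lower in mature mango (-0.056 for the miR396a type and -4.15 for the miR396b type). In avocado the miR396b type accounted for 46.1% and the miR396a type for 53.9% of the 21127 RPM by which the 5p sum was lower in mature leaves. In macadamia the miR396b type accounted for 59.8% of a difference of 4080 RPM. In mature mango the miR396b type was 22809 RPM below and the miR396a type 7926 RPM above its juvenile level. Of all listed miRNA reads, both sequences together held 28.1%, 21.3% and 43.0% in juvenile avocado, macadamia and mango, and 21.7%, 21.7% and 11.1% in the mature libraries.

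To place this shift, the same difference was computed in the other families that have at least 2 distinct sequences of an arm with 10 RPM or more in a library of every species. There were 5 such families (miR157, miR159, miR167, miR171 and miR393), and in 1 of them, 20%, the balance of the 2 most abundant sequences differed the same way in all 3 species. That family was miR393, which targets the TIR1 group of auxin receptors. Its log2 shifts were 0.82, 0.23 and 1.56 in avocado, macadamia and mango, against 0.57, 1.41 and 4.10 for miR396 on the same log2(RPM + 1) scale. The largest shift in another family was 3.19, in miR171 of mango, a family directed at GRAS transcription factors. The comparison was chosen after the miR396 shares had been seen and is a description.

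**Figure D3:**
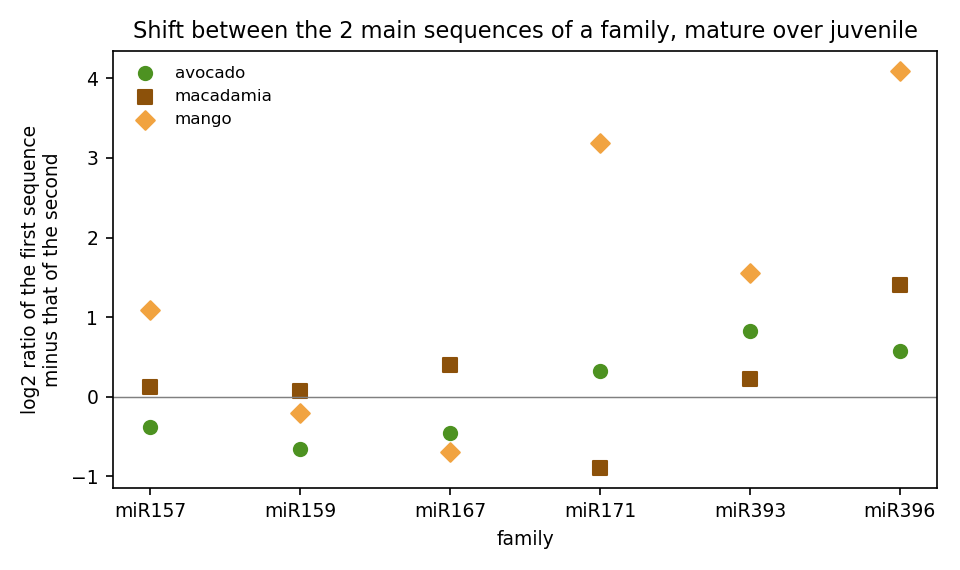
Shift in balance between the 2 most abundant sequences of a family, as the log2 age ratio of the first minus that of the second (mature over juvenile, RPM + 1), for 6 families and 3 species. All 3 points of miR396 and of miR393 lie above 0, and the mango point of miR396 (4.10) is the highest.

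The 3p sequence was far less abundant than either 5p sequence. Its level went from 69.7 RPM (321 reads) to 31.0 RPM (233 reads) in avocado, from 40.2 RPM (290 reads) to 41.9 RPM (72 reads) in macadamia and from 12.3 RPM (14 reads) to 7.97 RPM (36 reads) in mango between juvenile and mature leaves. Both mango libraries were below the 4 others. Juvenile avocado exceeded mature avocado 2.25-fold (95% interval 1.89 to 2.67). In macadamia the ratio of mature to juvenile leaves was 1.04 (0.794 to 1.35) and in mango 0.650 (0.342 to 1.30), and neither interval leaves out equal levels at this depth. Only 3p reads that the counting assigned to the rice sequence are in these values. A partner strand with other bases may thus be missed, and is not counted if no mismatch was allowed.

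Since miR396a-3p is the partner of the miR396a-type 5p strand in rice, the 3p reads were also set against the miR396a-type 5p reads of the same library. Per 1000 such reads, juvenile avocado had 3.54 of the 3p sequence (95% interval 3.16 to 3.95), and mature avocado 3.74 (3.27 to 4.25). Juvenile macadamia had 3.22 (2.86 to 3.61) against 3.86 (3.02 to 4.87) in mature leaves, and juvenile mango 1.64 (0.896 to 2.75) against 0.518 (0.362 to 0.717). The intervals of both ages overlapped in avocado and macadamia. In mango they did not, and the ratio was 3.17-fold lower in mature leaves (1.58 to 6.02), a difference between 2 libraries that rests on 14 and 36 reads of the 3p sequence. Set against both 5p sequences together, the mango values were 0.367 (0.201 to 0.616) and 0.430 (0.301 to 0.596) per 1000, with overlapping intervals. Over the 3 species the log2 change of 3p per miR396a-type read averaged -0.44 ± 1.06 (SD, n = 3 species, exact sign-flip permutation p = 1).

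**Figure D4:**
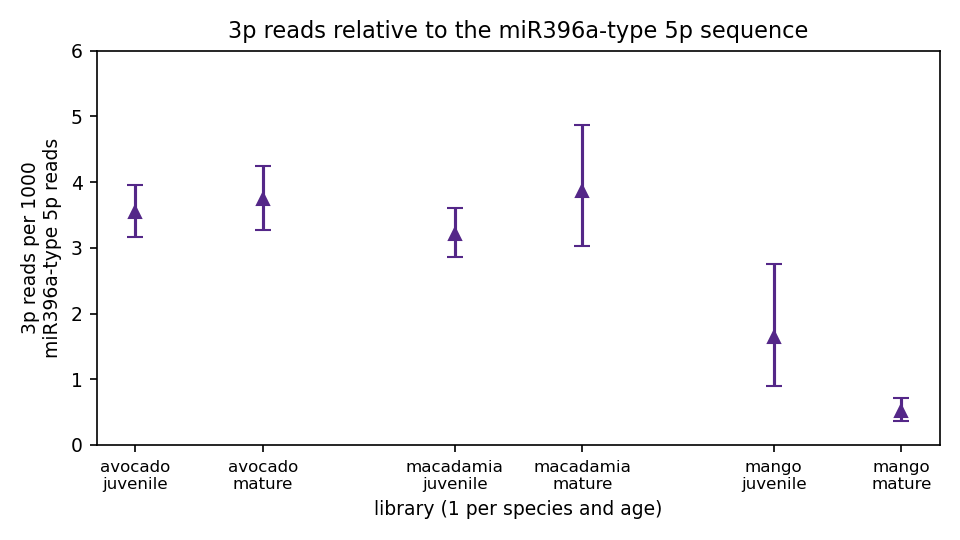
Reads of the 3p sequence per 1000 reads of the miR396a-type 5p sequence in the 6 libraries, with exact 95% intervals. Avocado and macadamia lie between 3.22 and 3.86 at both ages, and mango at 1.64 and 0.518.

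The age ratios of the 3 miR396 sequences were then read against all distinct sequences with at least 10 RPM in a library of the species, counting a sequence as changed at 2-fold or more on log2(RPM + 1), a scale that understates changes of low values. In mature avocado all 3 miR396 sequences were lower, where 50% of 34 sequences were, and none was higher, where 14.7% were. In mature macadamia 1 of the 3, the miR396b type, was lower, where 32.4% of 34 were, and none was higher, where 5.88% were. In mango the miR396b type was lower, where 31% of 29 sequences were, and the miR396a type was higher, where 37.9% were. Of the 23 sequences past 10 RPM in every species, 4 (17.4%) were at least 2-fold lower in mature leaves of all 3 species. The miR396b type was 1 of the 4, with 2 sequences of miR157 and 1 of miR390, and no sequence was 2-fold higher in all 3 (0%). At any size, 7 of the 23 (30.4%) were lower in all 3 species, of the miR396 sequences again the miR396b type alone, and 2 (8.7%) were higher.

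**Figure D5:**
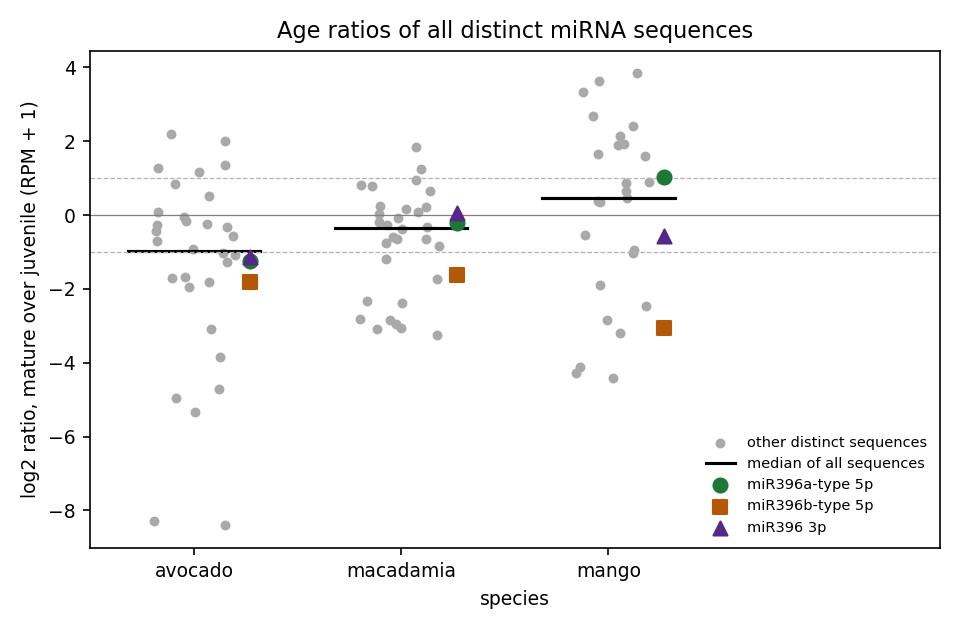
Log2 age ratios (mature over juvenile, RPM + 1) of every distinct miRNA sequence with at least 10 RPM in a library of the species, with the 3 miR396 sequences marked and a black line at the median. Dashed lines are 2-fold, and the miR396b-type sequence lies below the lower dashed line in all 3 species.

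The median log2 ratio of these sequences was not 0 and differed between species, at -0.96 in avocado, -0.36 in macadamia and 0.45 in mango. Relative to that median, the miR396b-type sequence remained lower in mature leaves, 1.80-fold in avocado, 2.39-fold in macadamia and 11.3-fold in mango, and the avocado value then lies under 2-fold. For the miR396a-type sequence the macadamia direction turned relative to the median, and the macadamia and mango directions turned as a share of listed miRNA reads. The direction of the miR396a type by age therefore depended on the scaling in macadamia and mango, and that of the miR396b type in none of the 3 species under these scalings.

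Taking the 3 species as replicates of the age contrast, the miR396b type had a log2 fold change of -2.16 between mature and juvenile leaves (standard error 0.89, 95% interval -3.96 to -0.37, lower in 3 of 3 species). The fit was made by limma on log2(RPM + 1), species being the block. The unadjusted p was 0.019 and the p adjusted over the 23 sequences was 0.089, which misses the threshold of 0.05. For the miR396a type limma gave -0.14 (95% interval -1.93 to 1.66, adjusted p = 0.92) and for the 3p sequence -0.55 (-2.34 to 1.25, adjusted p = 0.82), each lower in 2 of 3 species. Thus 0 of the 3 miR396 sequences were called by limma, and of all sequences 13% were called lower and 0% higher. An unadjusted p under 0.05 was found for 1 of the 3 and for 6 of all 23 sequences. limma pooled the spread over the 23 sequences, so these p-values rest on the standard error shared by all of them. With a minimum of 50 RPM, which left 14 sequences, the miR396b type was called (adjusted p = 0.037 from limma), and over all settings its adjusted p ran from 0.037 to 0.49. Without avocado the miR396a-type log2 fold change turned to 0.42. Fitted as the sum of both 5p sequences among 13 family sums, miR396 had a limma estimate of -0.91 (standard error 0.91, adjusted p = 0.53). With each species rescaled to the median log2 ratio of its family sums, not of its distinct sequences, the estimate was -0.25.

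The sequences of other families nearest to each miR396 sequence in their 3 age ratios were looked up among the 20 that passed 10 RPM in every species. Nearest to the miR396a type was rice miR166d-5p, a partner strand of the miR166 family (class III HD-ZIP regulators), with a root mean square difference of 0.35 on the log2 scale over the 3 species. The Arabidopsis miR159a sequence (0.60), directed at GAMYB-like transcripts, and the main miR166 sequence, Arabidopsis miR166a-3p (0.67), followed. Nearest to the miR396b type were the sequences of miR394 (0.92), directed at the F-box transcript LCR, of miR390 (0.98), which guides tasiRNA production from TAS3, and of miR164a (1.30), directed at NAC transcripts. The miR396a and miR396b types differed from each other by 2.52, and 14 of the 20 sequences were nearer to the miR396a type and 12 were nearer to the miR396b type than that. These distances rest on 3 pairs of libraries.

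Of the list of families with known parts in leaf and organ growth (miR164, miR165, miR166, miR319, miR390 and miR394), miR165 had no entry among the values, and neither of the 2 miR319 sequences reached 10 RPM in any library. In avocado 6 of its 9 measured sequences were at least 2-fold lower and 0 higher in mature leaves, where 50% and 14.7% of all sequences were, with a median log2 ratio of -1.27 beside -0.96 for all sequences. In macadamia 4 of 7 were lower and 0 higher, beside 32.4% and 5.88% of all (median -1.18 beside -0.36). In mango 3 of 6 were lower and 2 higher, beside 31% and 37.9% of all (median -0.18 beside 0.45). The 2 higher in mango were both of miR166. miR390 was lower by 2-fold or more in all 3 species, with log2 ratios of -1.82, -2.85 and -1.89, and miR394 in 2, with log2 ratios of -0.33, -1.74 and -2.47.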

How the data were processed

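Small RNA was sequenced from 6 leaf libraries, 1 per species and age. Per the study's methods, Trim Galore took off adapters, BBduk dropped ribosomal reads, and SCRAM counted what was left against the miRBase entries of rice and Arabidopsis. Tool versions, and whether mismatches were allowed, were not given in the sources used here. Values were deposited as RPM, scaled by the authors to reads of 20 to 24 nt and given to 3 decimals, and 0 columns were left unassigned. Sequences that differ from both reference species may be missed, and are not counted if no mismatch was allowed. Since each value is a share, it also moves with the other small RNAs of its library.

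Entries with identical values were counted once (53 distinct sequences). Depth was the smallest number of reads at which all 53 values of each library (100%) were whole reads within 0.00051 RPM, and a whole multiple of it would also satisfy them. Juvenile avocado, macadamia and mango had depths of 4606100, 7216756 and 1141472 reads, where 3 reads equal 0.651, 0.416 and 2.63 RPM. The mature libraries had 7509125, 1717832 and 4516161 reads, where 3 reads equal 0.400, 1.75 and 0.664 RPM. Ratios carry exact 95% intervals, Clopper-Pearson for ratios and shares, conditional for the change of a ratio, and Poisson for levels. Log ratios used RPM plus a pseudocount of 1. For the age effect, the 23 sequences with at least 10 RPM in a library of every species were fitted on that log2 scale, species being the block, by limma 3.58.1 (R 4.3.3), and p-values were adjusted by Benjamini-Hochberg. Python 3.11.15, numpy 2.4.6, pandas 2.3.3, scipy 1.17.1 and matplotlib 3.10.9 were used. The functions were tested on simulated data.

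All miR396 sequences are described, with the 3 nearest sequences of other families and a list of leaf growth families. Members, lists and tests were chosen with earlier results of these data known. Alternatives were other pseudocounts, scalings, filters, fold thresholds, ways to sum the family, no species block and leaving out a species. Adding 3p reads to the share, and the count of calls under each limma setting, were added after seeing the data. The qRT-PCR measurements were not analysed here. From its small RNA sequencing the study named miR396, with miR164 and miR394, as a candidate regulated by tree age in all 3 species. From the qRT-PCR it then reported no statistically significant difference of miR396 with tree age. The primer had the miR396a-5p sequence, and how far the qRT-PCR told it from miR396b-5p is not given.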

Additional observations from a re-analysis of the deposited data

Results flagged for a closer look

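As deposited, the miR396a-type 5p sequence went in opposite directions in different species. Its log2 ratio of mature to juvenile leaves was 1.04 in mango, -1.25 in avocado and -0.20 in macadamia, so mango lay 2.29 above avocado and 1.25 above macadamia. The differences were not tested, since each species has a single pair of libraries. The gap shrinks under other scalings, which also turn the direction in macadamia and, as a share of listed miRNA reads, in mango. Rescaled to the median, mango, avocado and macadamia have log2 ratios of 0.59, -0.28 and 0.15, and as a share of listed miRNA reads -0.056, -0.16 and 0.24, where mango is below macadamia.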

How the results depend on the processing

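With each species rescaled to a median log2 ratio of 0, log2 ratios in avocado, macadamia and mango were -0.28, 0.15 and 0.59 for the miR396a type, -0.85, -1.26 and -3.50 for the miR396b type, -0.49, -0.064 and -1.30 for the 5p sum, and -0.18, 0.42 and -1.01 for the 3p sequence. As a share of listed miRNA reads, of which miR396 is itself a large part, they were -0.16, 0.24 and -0.056 for the miR396a type, -0.73, -1.17 and -4.15 for the miR396b type, -0.084, 0.51 and -1.70 for the 3p sequence and -0.37, 0.025 and -1.95 for the 5p sum. The 5p sum had log2 ratios of -1.45, -0.42 and -0.85 as deposited, -1.40, -0.36 and -0.50 with every entry counted, and -1.25, -0.20 and 1.04 with the most abundant sequence alone. Pseudocounts of 0.1 and 5 RPM and adding the 3p arm moved these log2 ratios by less than the counting interval, as did adding 3p reads to the denominator of the shares. There are only 2 distinct 5p sequences, so all 5p reads give the same shares.

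In limma the log2 fold change of the miR396a type turned to 0.16 after rescaling. That of the family sum went from -0.91 to -0.25, rescaled here to the median log2 ratio of the family sums, not of the distinct sequences. For the miR396a type, leaving out each species gave -0.72 to 0.42. That of the miR396b type ran from -2.44 to -1.71 without a species, that of the 3p sequence from -0.85 to -0.25 and that of the family sum from -1.15 to -0.64. The miR396b type was called with a minimum of 50 RPM (log2 fold change -2.16, adjusted p = 0.037), where the 3p sequence was not tested. Without the replicate block of species, the log2 fold changes are the same and limma adjusted p-values were 0.95, 0.49 and 0.95 for the miR396a type, the miR396b type and the 3p sequence. limma called 3 sequences lower, 0 without the filter, 5 with a minimum of 50 RPM, and 0 to 4 when leaving out a species (0 without macadamia). Every library is replicate 1 of its group, so no other pairing exists. Count tests (edgeR and DESeq2) on recovered reads were not run.

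Counts of sequences at least 2-fold changed also moved. At 4-fold, 7 of 34 were lower and 2 higher in avocado, and 8 of 34 lower and 0 higher in macadamia. In mango 7 of 29 were lower and 6 higher, and 2 of 23 were lower in all 3 species. Of the miR396 sequences, 1 was still lower in mango, the miR396b type. None was lower in avocado, lower in macadamia, higher in mango or lower in all 3. At 1.5-fold, 6 were higher in macadamia and 1 was higher in all 3 species. With a minimum of 50 RPM, 3 were higher in avocado, 1 in macadamia and 7 in mango. After rescaling, 7 of 34 were lower and 8 higher in avocado, and 10 of 34 lower and 6 higher in macadamia. In mango 11 of 29 were lower and 10 higher, and 2 of 23 were lower in all 3 species. Of the miR396 sequences, 0 were then lower in avocado, 1 in macadamia, 2 in mango (the miR396b type and the 3p sequence) and 0 in all 3. None was higher in mango. The mango 3p log2 ratio of -1.01 is close to 2-fold and rests on 14 and 36 reads. The causes were not tested.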
